A study of Homo sapiens with 3 samples.

Results

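The genes described here are 9 genes of transforming growth factor beta (TGF-beta) signalling and of the matrix programme tied to it. They are the ligands TGFB1 and TGFB2, the receptors TGFBR1 and TGFBR2, the signal transducer SMAD3, the feedback inhibitor SMAD7, and the secreted matrix proteins TGFBI, THBS1 and SPARC. They were chosen by name, as all transcripts on assembled chromosomes whose name carries the gene symbol, and are 9 of 60506 genes listed there. Of those, 13923 had a mean summed level of at least 1 FPKM (fragments scaled to transcript length and to the library total) over the 3 libraries and were compared, and the 9 were all among them.

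TGF-beta ligands are secreted in a latent form that is held in the matrix and released by integrins, proteases and thrombospondin. The active ligand binds the type II receptor TGFBR2, which phosphorylates the type I receptor TGFBR1, and TGFBR1 in turn phosphorylates SMAD2 and SMAD3, which enter the nucleus with SMAD4. SMAD7 is a direct target and a feedback inhibitor of the receptor. In keratinocytes the pathway is known for restraining growth and for inducing matrix genes during wound repair.

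The libraries come from HaCaT, an immortalized human keratinocyte line, given 10 nM of an siRNA in a lipid reagent. In 2 libraries the siRNA targeted SRSF5, a splicing factor, with a different siRNA in each (No.1 and No.2 in the labels, siRNA 1 and siRNA 2 here), and these carry the genotype label SRSF5 knockdown. The remaining library received a control siRNA and carries the label WT. The libraries held 17706029 equivalents of a 100-base read with siRNA 1 and 15861996 with siRNA 2, against 18321701 in the control. There was 1 library for each siRNA, nothing says that a transfection was repeated, and the time between transfection and harvest is not given in the labels. A difference between siRNA 1 and siRNA 2, or between either and the control, therefore has no replicate check. SRSF5 itself stood at 44.3 summed FPKM with siRNA 1 and 18.7 with siRNA 2, against 94.1 in the control, or 47.1% and 19.8% of the control. Basal keratinocyte markers were present (6 of 6 at a mean of at least 1 FPKM, KRT5 and KRT14 foremost), and so were 4 of 6 suprabasal markers. By highest transcript, in FPKM with siRNA 1, siRNA 2 and the control, KRT1 was at 0.525, 9.35 and 0.839. FLG was at 0.703, 8.16 and 0.179, IVL at 14.5, 3.24 and 6.29, and KRT10 at 22.2, 19.8 and 24.9. LOR and DSG1 lay under 0.1 FPKM throughout. In bulk RNA, fewer cells of a type and less RNA per cell cannot be told apart.

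Levels are compared between genes on the FPKM scale of the highest transcript, which is per length. For THBS1 (THBS1-208, 537 bases) and SPARC (SPARC-202) that transcript has a retained intron, and for TGFB2 (TGFB2-204) it is noncoding. For TGFBI it is TGFBI-208, a coding transcript of 582 bases. The order of genes therefore depends on the transcript used. By that measure TGFBI led in every library (182 FPKM with siRNA 1, 153 with siRNA 2, 83.5 in the control) and THBS1 came next (82.2 with siRNA 1, 101 with siRNA 2, 50.1 in the control). TGFB1, SMAD3 and SPARC lay between 6.53 and 29.4 FPKM and changed places from library to library. By this measure TGFBR2 held the sixth place throughout at 7.06 FPKM with siRNA 1 and 5.97 with siRNA 2, against 6.17 in the control. On long coding transcripts the control order differed. There THBS1-201 (22.7 FPKM) lay near TGFB1-201 (21.3 FPKM), and TGFBR2-201 (6.15 FPKM) lay above SPARC-201 (3.53 FPKM). TGFBR1, TGFB2 and SMAD7 lay lowest, between 0.633 and 2.75 FPKM, and also changed places. Across libraries the 3 matrix genes were higher with both SRSF5 siRNAs than in the control. TGFB1 and TGFBR1 lay above the control with siRNA 1 and below it with siRNA 2, TGFB2 stood apart with siRNA 1 alone, SMAD3 did the reverse of TGFB1, and TGFBR2 hardly varied.

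**Figure D1:**
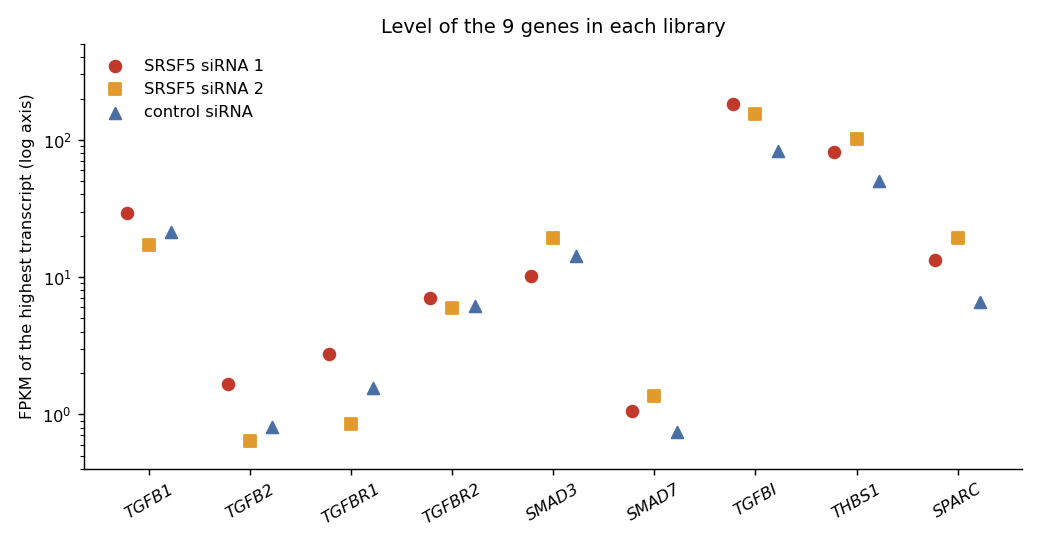
FPKM of the highest transcript of each gene (log axis) in the SRSF5 siRNA 1, SRSF5 siRNA 2 and control siRNA libraries, with 1 point per library. TGFBI, THBS1, SPARC and SMAD7 sit above the control in both siRNA libraries, while the ligands and receptors sit above it with siRNA 1 only.

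Summed FPKM, the sum over the listed transcripts of a gene, gives the ratios below. Isoforms share reads in these values, so a summed level grows with the number of listed transcripts and is set only against the same gene in another library. Log2 ratios are on the scale log2(summed FPKM + 1), which understates differences of low genes. Their counting error comes from the transcript with the most reads, in equivalents of a 100-base read, and covers counting only, since copies made by PCR are not independent molecules. This error is computed without the added 1 FPKM, so for low genes the ratio is shrunk and the error is not.

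Of the matrix genes, TGFBI was the most abundant. TGFBI (ENSG00000120708.17, chromosome 5, 136028988 to 136063818, plus strand) encodes a secreted protein induced by TGF-beta that binds collagens and integrins. It had a summed level of 1347 FPKM with siRNA 1 and 1162 FPKM with siRNA 2, against 612 FPKM in the control. The siRNA 1 library was the highest of the 3 and the control the lowest. On the log2 scale TGFBI stood 1.14 above the control with siRNA 1 and 0.92 with siRNA 2 (counting error 0.024 each), a mean of 1.03 ± 0.15 (SD, n = 2). Here and below this SD is the spread between 2 different siRNAs over the same control library. It holds no variation of the control and is not a replicate error. Its most-read transcript held 11670 read equivalents with siRNA 1 and 9842 with siRNA 2, against 5534 in the control.

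THBS1 (ENSG00000137801.10, chromosome 15, 39581079 to 39599466, plus strand) encodes thrombospondin 1, a matricellular protein that can release TGF-beta from its latent form. It had 256 summed FPKM with siRNA 1 and 322 with siRNA 2, against 160.3 in the control. The siRNA 2 library was the highest of the 3. THBS1 had a log2 ratio of 0.67 with siRNA 1 (counting error 0.021) and 1.00 with siRNA 2 (counting error 0.020), with a mean of 0.84 ± 0.23 (SD, n = 2). A gene on the same strand that overlaps it, AC037198.1, was at 1.06 summed FPKM with siRNA 1 and 0.793 with siRNA 2, against 0.122 in the control.

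SPARC (ENSG00000113140.11, chromosome 5, 151661096 to 151686975, minus strand) encodes a collagen-binding matricellular glycoprotein. It had 62.5 summed FPKM with siRNA 1 and 89.4 with siRNA 2, against 30.9 in the control. The control was the lowest library and siRNA 2 the highest, at 2.90-fold over the control, where siRNA 1 was at 2.02-fold. For SPARC the log2 ratio was 0.99 with siRNA 1 (counting error 0.076) and 1.51 with siRNA 2 (counting error 0.073), with a mean of 1.25 ± 0.36 (SD, n = 2). The gap between the siRNAs, 0.51 lower with siRNA 1, was larger than its counting error of 0.059.

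A rule of 1.5-fold or more was set on the log2(summed FPKM + 1) scale, one way in siRNA 1 and siRNA 2 alike. By it TGFBI, THBS1 and SPARC were the 3 of 9 genes called higher, and 0 of 9 were called lower. Among all 13923 genes 3.19% were called higher and 1.47% lower by the same rule. The median log2 ratio of the 9 genes was 0.67 with siRNA 1 and 0.34 with siRNA 2, beside -0.025 and 0.046 for all genes tested. At a 2-fold threshold on the same FPKM + 1 scale 0 of the 9 passed in both libraries in either direction (0.733% of all genes were at least 2-fold higher and 0.28% lower). SPARC fell just short on it, at a log2 ratio of 0.99 with siRNA 1. Its summed FPKM itself was 2.02-fold the control with siRNA 1 and 2.90-fold with siRNA 2. SPARC passed 2-fold in both with a pseudocount of 0.1 FPKM (1.02 with siRNA 1 and 1.53 with siRNA 2), with median scaling and without mitochondrial transcripts. In limma, fitted to the log2 values of all genes with 2 siRNA libraries against 1 control, 0 of 13923 genes (0% of those tested) had a Benjamini-Hochberg adjusted p below 0.05, and each of the 9 had an adjusted p of 1.00. Without adjustment, 416 genes (2.99%) had a limma p below 0.05, and of the 9 these were TGFBI, THBS1 and SPARC. With 1 residual degree of freedom, the fit takes its spread from how far siRNA 1 and siRNA 2 lie apart and gives the single control that spread too. A robust fit called 3 genes, none of them among the 9.

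**Figure D2:**
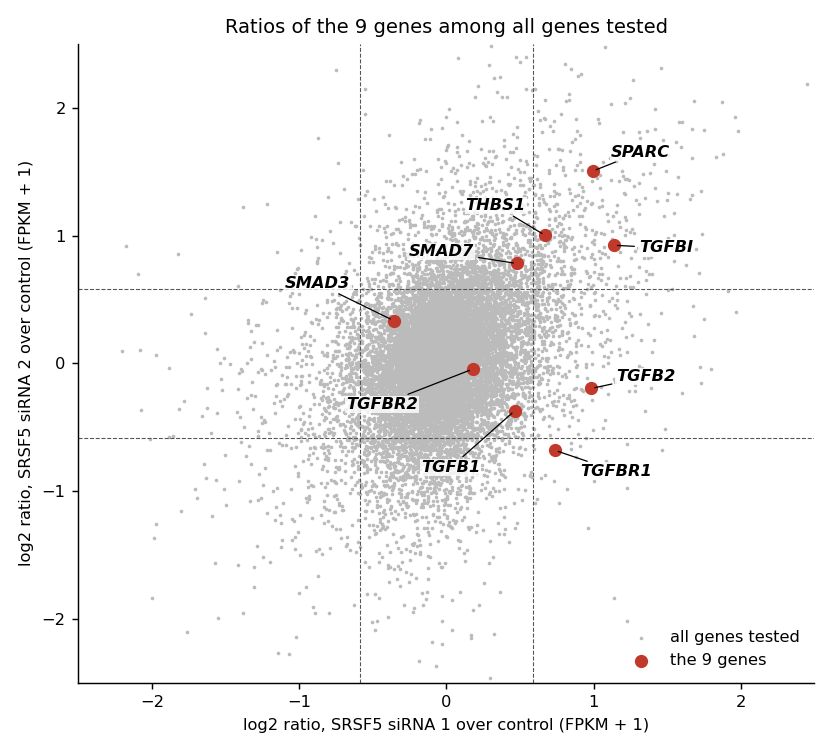
Log2 ratio of summed FPKM + 1 for SRSF5 siRNA 1 over control (x axis) and SRSF5 siRNA 2 over control (y axis), 1 point per gene, with the 9 genes in red and dashed lines at 1.5-fold. Both axes share the 1 control library, 36 genes lie outside the axes, TGFBI, THBS1 and SPARC lie in the upper right corner, and TGFBR1 lies in the lower right.

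The promoters of the 3 matrix genes called higher, and of TGFB2, whose 5′ end is described further on, are shown for the short motifs that SMAD and TEAD factors bind. Each line gives the 250 bases before the RefSeq start site (build GRCh38.p14, 5′ to 3′ on the strand of the gene). Capitals mark CAGAC, the short SMAD-binding motif, and GGAATG, the core bound by TEAD factors, on either strand. No TGANTCA motif of AP-1 lies in these 4 windows. The matches do not overlap each other.
TGFBI: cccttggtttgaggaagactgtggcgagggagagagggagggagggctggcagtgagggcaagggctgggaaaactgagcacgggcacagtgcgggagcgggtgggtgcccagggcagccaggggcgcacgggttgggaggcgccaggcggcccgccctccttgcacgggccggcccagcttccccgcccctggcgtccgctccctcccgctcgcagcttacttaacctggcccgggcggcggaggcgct
THBS1: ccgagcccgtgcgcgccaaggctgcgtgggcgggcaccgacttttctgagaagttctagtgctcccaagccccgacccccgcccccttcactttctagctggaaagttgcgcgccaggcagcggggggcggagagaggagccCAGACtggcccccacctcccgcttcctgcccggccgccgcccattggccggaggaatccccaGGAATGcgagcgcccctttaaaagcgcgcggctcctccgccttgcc
SPARC: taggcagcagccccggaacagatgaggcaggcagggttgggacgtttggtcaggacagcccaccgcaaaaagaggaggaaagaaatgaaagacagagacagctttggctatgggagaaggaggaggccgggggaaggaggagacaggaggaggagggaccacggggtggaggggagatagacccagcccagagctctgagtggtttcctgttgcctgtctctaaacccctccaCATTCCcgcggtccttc
TGFB2: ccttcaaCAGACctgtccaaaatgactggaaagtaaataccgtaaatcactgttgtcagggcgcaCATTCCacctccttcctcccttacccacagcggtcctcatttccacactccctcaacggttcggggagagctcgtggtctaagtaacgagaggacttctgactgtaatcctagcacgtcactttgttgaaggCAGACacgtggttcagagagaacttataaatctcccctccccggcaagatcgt
The windows are chr5:136028738-136028987 on the plus strand for TGFBI, chr15:39580829-39581078 on the plus strand for THBS1, chr5:151686916-151687165 on the minus strand for SPARC, chr1:218345086-218345335 on the plus strand for TGFB2. In the THBS1 window CAGAC begins 108 bases before the start and GGAATG 46 bases before it. SPARC holds the TEAD motif in reverse, 17 bases before its start, and no CAGAC. TGFB2 holds CAGAC at 243 and 53 bases and the TEAD motif in reverse at 185 bases before its start. The TGFBI window holds none of them. Of the 9 genes 8 had a RefSeq promoter within 100 bases of the 5′ end of their most-read transcript, and 3 of these 8 held CAGAC, 3 GGAATG and 0 TGANTCA. Among 34943 RefSeq promoter windows of the same length, 38.0% held CAGAC, 11.9% GGAATG and 6.59% TGANTCA on either strand. A match describes these letters and is not evidence of binding.

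The ligands differed between the siRNAs. TGFB1 (ENSG00000105329.9, chromosome 19, 41301587 to 41353911, minus strand), the main TGF-beta of epithelia, had 54.5 summed FPKM with siRNA 1 and 30.1 with siRNA 2, against 39.2 in the control. The control lay between the siRNA libraries. TGFB1 had a log2 ratio of 0.46 with siRNA 1 (counting error 0.037) and -0.37 with siRNA 2 (counting error 0.043), so its mean of 0.047 ± 0.59 (SD, n = 2) describes neither. It overlaps HNRNPUL1 and CCDC97 on the other strand, and the counting used strand. On its own strand it overlaps AC011462.5, at 0.711 summed FPKM with siRNA 1 and 0.467 with siRNA 2, against 0.535 in the control.

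TGFB2 (ENSG00000092969.12, chromosome 1, 218345336 to 218444619, plus strand), the isoform that also signals in development, had 5.71 summed FPKM with siRNA 1 and 1.96 with siRNA 2, against 2.39 in the control. Only the siRNA 1 library stood apart. Its log2 ratio was 0.98 with siRNA 1 (counting error 0.15) and -0.20 with siRNA 2 (counting error 0.19). For siRNA 2 no clear difference was seen at this depth, though the ratio is shrunk by the added 1 FPKM. The summed FPKM of TGFB2 itself was 0.820-fold the control with siRNA 2. The most-read transcript held 419 read equivalents with siRNA 1 and 112 with siRNA 2, against 126 in the control. TGFB3, the remaining TGF-beta ligand, named after its values were seen, held only 17.0 read equivalents with siRNA 1 and 23.4 with siRNA 2, against 12.6 in the control.

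Within TGFB2 the ratio of siRNA 1 to the control was larger for the transcript with the longer 5′ end. TGFB2-202 holds 899 bases at its 5′ end (chromosome 1, 218345336 to 218346234) that TGFB2-201 lacks, and itself lacks 1 exon of 84 bases (218363334 to 218363417), so the difference in bases between them is a lower bound on what the upstream stretch held. That bound was 204 read equivalents with siRNA 1 and 31 with siRNA 2, against 23 in the control. Per length this is at least 5.35 FPKM with siRNA 1 and 0.836 FPKM with siRNA 2, against 0.574 FPKM in the control. The stretch made up at least 48.6% of the bases of TGFB2-202 with siRNA 1 and 27.8% with siRNA 2, against 18.2% in the control. TGFB2-201, which lacks it, was at 1.01 FPKM with siRNA 1 and 0.386 with siRNA 2, against 0.459 FPKM in the control, or 2.20-fold with siRNA 1 and 0.843-fold with siRNA 2. TGFB2-202 was at 3.50-fold with siRNA 1 and 0.954-fold with siRNA 2. The antisense gene TGFB2-AS1, which overlaps the start, was at 0.212 summed FPKM with siRNA 1 and 0.131 with siRNA 2, against 0.0805 in the control. This stretch was looked at after its values were seen, and it rests on a single library. The listed exons of TGFB2-202 also differ from those of GENCODE on GRCh38.

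Of the receptors, TGFBR1 differed between the siRNAs and TGFBR2 little. TGFBR1 (ENSG00000106799.13, chromosome 9, 99104038 to 99154192, plus strand), the type I receptor kinase, had 18.6 summed FPKM with siRNA 1 and 6.34 with siRNA 2, against 10.8 in the control. The control again lay in the middle, and the siRNA libraries were 2.94-fold apart. TGFBR1 stood at a log2 ratio of 0.74 with siRNA 1 (counting error 0.091) and -0.68 with siRNA 2 (counting error 0.12), with a mean of 0.028 ± 1.00 (SD, n = 2). At least 1.5-fold higher with siRNA 1 and also 1.5-fold lower with siRNA 2 than the control were 24 of 13923 genes (0.172%), and TGFBR1 was the 1 of the 9, a pattern counted after its values were seen. On the FPKM + 1 scale of its highest transcript the ratios with siRNA 1 and siRNA 2 were 0.55 and -0.47. With the mean over transcripts they were 0.46 and -0.35, so in both settings TGFBR1 kept its signs but stayed within 1.5-fold on the FPKM + 1 scale. That scale shrinks the ratios of low levels. The FPKM of the highest TGFBR1 transcript itself was 1.77-fold the control with siRNA 1 and 0.546-fold with siRNA 2.

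TGFBR2 (ENSG00000163513.17, chromosome 3, 30606502 to 30694142, plus strand), the type II receptor that binds the ligand first, had 14.1 summed FPKM with siRNA 1 and 11.9 with siRNA 2, against 12.3 in the control. Its levels lay within 1.18-fold of each other between the siRNAs. The log2 ratio to the control was 0.18 with siRNA 1 (counting error 0.056) and -0.044 with siRNA 2, where the counting error of 0.059 was larger than the ratio.

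SMAD3 (ENSG00000166949.16, chromosome 15, 67063763 to 67195169, plus strand), the transducer that carries the receptor signal to DNA, had 72.6 summed FPKM with siRNA 1 and 118 with siRNA 2, against 93.4 in the control. The siRNA 2 library was the highest and the siRNA 1 library the lowest. SMAD3 had a log2 ratio of -0.36 with siRNA 1 (counting error 0.035) and 0.34 with siRNA 2 (counting error 0.030). SMAD3 was the single member of the 9 below the control with siRNA 1.

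SMAD7 (ENSG00000101665.9, chromosome 18, 48919853 to 48952052, minus strand), the feedback inhibitor, had 4.72 summed FPKM with siRNA 1 and 6.06 with siRNA 2, against 3.11 in the control. Both siRNA libraries lay above the control. SMAD7 had a log2 ratio of 0.48 with siRNA 1 (counting error 0.16) and 0.78 with siRNA 2 (counting error 0.15), with a mean of 0.63 ± 0.21 (SD, n = 2), so it missed the 1.5-fold rule with siRNA 1. That rule works on summed FPKM + 1, and the summed FPKM of SMAD7 itself was 1.52-fold the control with siRNA 1 and 1.95-fold with siRNA 2. With a pseudocount of 0.1 FPKM its log2 ratios were 0.59 and 0.94 and it passed. Its most-read transcript held 147 read equivalents in the control, the fewest of the 9 after TGFB2.

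Set directly against each other, siRNA 1 and siRNA 2 differed by at least 1.5-fold in 4 of the 9 genes. With siRNA 1 TGFB1 (log2 ratio over siRNA 2 of 0.83), TGFB2 (1.18) and TGFBR1 (1.42) were higher, 3 of 9, where 10.5% of all genes were. Lower with siRNA 1 was SMAD3 (-0.69), 1 of 9, where 13.7% of all genes were. For SPARC (-0.51), THBS1 (-0.33), SMAD7 (-0.30), TGFBI (0.21) and TGFBR2 (0.22) the siRNAs were within 1.5-fold. With siRNA 1, 5 of the 9 genes were at least 1.5-fold higher than the control on the log2(summed FPKM + 1) scale (6.18% of all genes). With siRNA 2, 4 of the 9 were (13.2%). At least 1.5-fold lower were 0 with siRNA 1 (5.47%) and 1, TGFBR1, with siRNA 2 (10.1%).

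The listed transcripts of each gene lay on the same side of the control within each siRNA library. Their size differed most in TGFB2 with siRNA 1, at 207% to 350% of the control, against 74.3% to 95.4% with siRNA 2. Both TGFBR2 transcripts stood at 114% with siRNA 1 and 96.7% to 96.8% with siRNA 2. The 9 genes had 75 transcripts, 44 coding, 21 with a retained intron, 7 noncoding and 3 marked for nonsense-mediated decay. A sequenced base counts for every transcript it overlaps, and the transcripts of a gene therefore carry many of the same reads and cannot be counted as independent. All 15 TGFBI transcripts were above the control, at 211% to 225% of it with siRNA 1 and 178% to 204% with siRNA 2. All 8 of THBS1 stood at 152% to 167% with siRNA 1 and 187% to 214% with siRNA 2. All 9 of SPARC stood at 191% to 216% with siRNA 1 and 268% to 302% with siRNA 2. The full-length coding transcripts gave the same picture, with TGFBI-201 at 102 FPKM with siRNA 1 and 87.8 with siRNA 2, against 45.7 FPKM in the control. THBS1-201 was at 36.8 FPKM with siRNA 1 and 47.7 with siRNA 2, against 22.7 FPKM in the control. SPARC-201 was at 7.14 FPKM with siRNA 1 and 10.2 with siRNA 2, against 3.53 FPKM in the control.

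The transcripts of the other genes split by library in the same way as their sums. All 10 TGFBR1 transcripts were above the control with siRNA 1 (162% to 181%) and below it with siRNA 2 (54.6% to 69.3%). All 15 SMAD3 transcripts were below it with siRNA 1 (71.5% to 88.3%) and above it with siRNA 2 (109% to 151%). The 4 TGFB1 transcripts stood at 121% to 151% with siRNA 1 and 63.9% to 80.8% with siRNA 2. SMAD7 transcripts ranged widely, 124% to 219% with siRNA 1 and 154% to 320% with siRNA 2, on few reads. Shares within a gene moved by at most 9.40 percentage points with siRNA 1, in TGFB2, and by at most 4.42 with siRNA 2, in SMAD7.

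**Figure D3:**
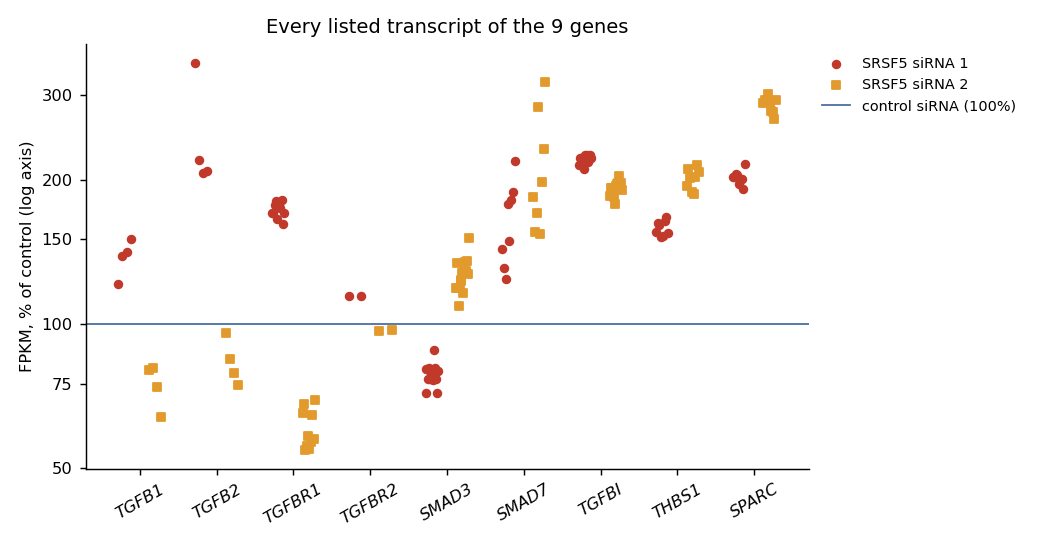
FPKM of each of the 75 listed transcripts as a percentage of the control (log axis), 1 point per transcript, with SRSF5 siRNA 1 left and SRSF5 siRNA 2 right for each gene and the control as the line at 100%. All TGFBR1 points lie above the line with siRNA 1 and below it with siRNA 2, SMAD3 points do the reverse, and 1 TGFB2 transcript at 350% with siRNA 1 lies apart from the other 3.

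Around the 9 genes, 7 lists of pathway and matrix genes were read. The lists were chosen with earlier results of these data known, so the shares called in them are a description and not independent support. For their genes and medians, a pair of log2 ratios to the control gives siRNA 1 first and siRNA 2 second. They hold 150 further genes, of which 98 were tested, and 17 of these were at least 1.5-fold higher and 1 was lower in both siRNA libraries (17.3% and 1.02%, where 3.19% and 1.47% of all genes were). The same shares of all genes stand beside the count of each list below. A gene on several lists is counted in each, as PMEPA1, CCN2 and FSTL3 are. Of the 17, COL5A1, CCN2 and SPOCK1 reached the mean of 1 FPKM only through the siRNA libraries. The median log2 ratio over the 98 was 0.24 with siRNA 1 and 0.38 with siRNA 2. In limma 0 of them passed a Benjamini-Hochberg adjusted p of 0.05 over all genes. With the highest transcript in place of the sum 10 were higher, where 252 of all 13923 genes were. With the mean over transcripts 9 were, where 188 of all 13923 genes were.

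Among ligands, latency proteins and activators (19 of 26 tested) 3 were higher and 1 lower, with medians of 0.29 and 0.16. ITGB8, an integrin chain that activates latent TGF-beta, was at 5.92 FPKM with siRNA 1 and 3.17 with siRNA 2 for its highest transcript, against 1.51 FPKM in the control (log2 ratios 1.70 and 0.89). The fibrillin FBN2 (0.75 and 1.19) and FSTL3 (1.01 and 0.94), which binds activin, were higher, and GDF15, a distant member of the ligand family, was lower (-1.41 and -0.92). MMP14, a membrane protease, had the highest mean over the 3 libraries in the list, at 59.7 FPKM with siRNA 1 and 35.8 with siRNA 2, against 46.3 FPKM in the control. Of the latency proteins LTBP1 (0.12 and 0.15) and LTBP4 (0.29 and 0.16) stayed within 1.5-fold with both, while LTBP2 (-0.41 and -1.08) and LTBP3 (0.28 and -0.59), named after their values were seen, were past 1.5-fold lower with siRNA 2.

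Neither other receptors (8 of 11 tested) nor other SMAD proteins and partners (9 of 11 tested) had a gene called, with medians of -0.11 and 0.070 for the receptors and -0.014 and 0.32 for the SMAD list. The BMP receptor BMPR2, the highest of the receptor list by its mean over the libraries, was at 5.44 FPKM with siRNA 1 and 7.64 with siRNA 2, against 8.43 FPKM in the control. SMAD2, which works beside SMAD3, had log2 ratios of -0.017 and 0.47, and SMAD4, the shared partner, 0.22 and -0.069. CREBBP, a coactivator of SMAD complexes, led its list by the same mean, at 19.5 FPKM with siRNA 1 and 21.2 with siRNA 2, against 14.8 FPKM in the control. Of 16 inhibitors and feedback regulators tested (17 listed) 1 was higher, PMEPA1, a TGF-beta target that limits SMAD signalling, and the medians were -0.023 and 0.38. PMEPA1 was at 6.37 FPKM with siRNA 1 and 5.84 with siRNA 2, against 1.99 FPKM in the control (log2 ratios 1.58 and 1.46), and STRAP had the highest mean of that list, at 17.0 FPKM with siRNA 1 and 19.4 with siRNA 2, against 13.1 FPKM in the control. The ubiquitin ligase SMURF1 had log2 ratios of -0.059 and 0.0052.

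Known SMAD-dependent targets (30 of 39 tested) had 7 genes higher and 0 lower, where 3.19% and 1.47% of all genes were, with medians of 0.52 and 0.48. The list was not split by the direction in which TGF-beta moves a gene, so the count does not give a direction of pathway activity. They were CCN2 (1.25 and 2.08), PMEPA1, ID2 (0.73 and 0.84), CDKN1A (0.59 and 0.65), SNAI2 (0.70 and 1.86), PDGFB (1.13 and 0.97) and FSTL3. CCN2 encodes a matricellular growth factor, SNAI2 a repressor of epithelial genes, CDKN1A an inhibitor of cyclin-dependent kinases and PDGFB a platelet-derived growth factor chain. CDKN1A lay at the threshold, and CCN2 reached the mean of 1 FPKM only through the siRNA libraries. ID1, a target of the BMP branch with the highest mean level of the list, was at 45.1 FPKM with siRNA 1 and 57.4 with siRNA 2, against 69.9 FPKM in the control.

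Of 29 matricellular genes 10 were tested and 5 were higher, with medians of 0.99 and 0.84. Of these 5, CCN2 and SPOCK1 reached the mean of 1 FPKM only through the siRNA libraries (0.556 and 0.631 summed FPKM in the control). CCN1 (1.96 and 1.93) and CCN2, integrin ligands of the CCN family, FSTL1 (1.74 and 1.01), SPOCK1 (0.81 and 1.47) and tenascin C, TNC (1.18 and 0.67), made up the 5, and FSTL1 and SPOCK1 belong to the family of SPARC. EFEMP1, an elastic fibre protein with the highest mean level over the libraries, was at 64.3 FPKM with siRNA 1 and 34.6 with siRNA 2, against 22.8 FPKM in the control. CD47, a receptor of THBS1 singled out after its values were seen, was at 38.8 FPKM with siRNA 1 and 14.7 with siRNA 2, against 39.8 FPKM in the control.

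Among structural matrix proteins and crosslinking enzymes (16 of 27 tested) 4 were higher and 0 lower: COL1A1 (0.78 and 0.75), COL5A1 (0.89 and 1.55), COL12A1 (1.22 and 1.04) and the lysyl oxidase LOXL2 (1.22 and 0.67). The medians were 0.37 and 0.39. COL5A1 rests on 64.1 read equivalents with siRNA 1 and 117 with siRNA 2, against 8.67 in the control. Its summed level was 0.0839 FPKM there, as CCN2 was at 0.556 and SPOCK1 at 0.631, so these 3 of the 17 genes called higher reached the mean of 1 FPKM only through the siRNA libraries. COL17A1, a hemidesmosome collagen of basal keratinocytes, had the highest mean level, at 60.1 FPKM with siRNA 1 and 78.5 with siRNA 2, against 49.8 FPKM in the control. Fibroblast markers, a list that shares COL1A1 with the matrix genes, summed to 1.72 FPKM with siRNA 1 and 1.76 with siRNA 2, against 0.716 FPKM in the control, nearly all of it COL1A1. Of 9 markers 7 lay under 0.1 FPKM in every library and DPT was listed at 0. Beside the higher matrix genes, basal keratinocyte markers summed to 1083 FPKM with siRNA 1 and 2334 with siRNA 2, against 845 FPKM in the control, and their part in the matrix result was not tested. KRT14 carried most of the difference (554 FPKM with siRNA 1 and 1670.4 with siRNA 2, against 382 FPKM in the control), while ITGA6 was lower with both (37.3 FPKM with siRNA 1 and 26.3 with siRNA 2, against 44.6 FPKM). ITGB4 was at 45.4 FPKM with siRNA 1 and 28.2 with siRNA 2, against 31.6 FPKM in the control.

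**Figure D4:**
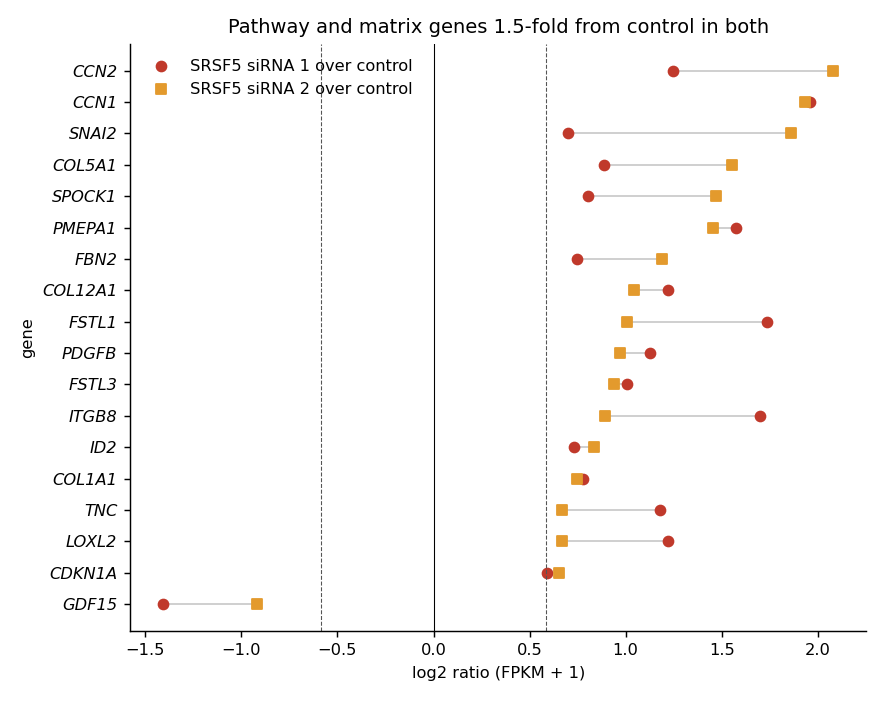
Log2 ratio of summed FPKM + 1 over the control for the 18 listed pathway and matrix genes that passed the 1.5-fold rule, with circles for SRSF5 siRNA 1, squares for SRSF5 siRNA 2 and dashed lines at 1.5-fold. GDF15 is the 1 gene below the control, CDKN1A lies at the threshold, and SNAI2 has the widest gap between siRNAs.

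Genes whose pair of ratios lay nearest to each matrix gene were looked up among genes whose summed control level was within 1 of it on the log2(summed FPKM + 1) scale, as the distance in the plane of 2 log2 ratios that share 1 control library. Nearest to TGFBI among 260 genes were the annexin ANXA1 (distance 0.21), the actin ACTG1 (0.50) and the ubiquitin gene UBB (0.65). Nearest to THBS1 among 1298 genes were the noncoding RNA BCYRN1 (0.027), TES (0.041) and the protease gene CTSB (0.11). Nearest to SPARC among 4287 genes were RAB1A (0.14), BLOC1S6 (0.21) and AJUBA (0.23). Per length these levels can lie further apart: the highest transcript was at 246 FPKM in the control for BCYRN1, against 50.1 FPKM for THBS1, and at 1.10 FPKM for BLOC1S6, against 6.53 FPKM for SPARC. With 3 libraries such a likeness is a description of these values only.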

How the data were processed

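Per the file headers, the authors deposited FPKM per transcript, with exons, strand and length, for 3 libraries. Of the builds in the submitters' processing notes (GRCh38.p12, GRCm38 and mm10) none has a stated role, and no aligner or counter is named in the labels or headers. The exons of 70 of the 75 transcripts equal those of GENCODE on GRCh38, and coordinates are as deposited. Those of TGFB2-202, TGFBI-201, SPARC-201, TGFBR1-202 and SMAD3-201 differ. Multiplied by length, the FPKM values fell on whole multiples of a single unit per library (100% of values checked, tolerance 0.05), which gave base counts. These were divided by 100 bases to give read equivalents, 17706029 for siRNA 1, 15861996 for siRNA 2 and 18321701 for the control over the largest transcript of each gene. Strand was tested on nested transcripts: the inner one held more bases in 0 of 1197 pairs sharing a strand and in 65 of 177 on opposite strands. The placing of reads with several matches is unknown. Counting errors cover counting only.

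Gene levels are sums over transcripts on assembled chromosomes (226669 of 247012 transcripts). The main rule, which gives no p, was 1.5-fold in both siRNA libraries on log2(FPKM + 1), with a filter at a mean of 1 FPKM. limma 3.58.1 in R 4.3.3 was run with a trend. Its p-values rest on the spread between 2 different siRNAs with 1 library each. That spread mixes differences between the siRNAs with differences between libraries, and is not a spread between repeated transfections. Tables were made in Python 3.11.15. Alternatives were a pseudocount of 0.1 FPKM, no filter, the highest transcript, the mean over transcripts, median scaling, removal of mitochondrial transcripts (15.1%, 10.2% and 14.0% of base overlaps in siRNA 1, siRNA 2 and the control), each siRNA library left out, a 2-fold threshold, and limma without a trend or robust. The genes and lists were chosen with earlier results of these data known. Named from the lists are genes passing the main rule, the gene of highest mean level, examples within 1.5-fold in both, and those stated as singled out later.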

Additional observations from a re-analysis of the deposited data

How the results depend on the processing

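TGFBI, THBS1 and SPARC were at least 1.5-fold higher in both siRNA libraries under the other pseudocount, without the filter, with the highest transcript or the mean over transcripts, with median scaling and without mitochondrial transcripts. Over these settings the log2 ratios with siRNA 1 and siRNA 2 ranged from 1.12 to 1.16 and 0.86 to 0.93 for TGFBI, 0.65 to 0.70 and 0.94 to 1.01 for THBS1, and 0.84 to 1.02 and 1.30 to 1.53 for SPARC. SMAD7 ranged from 0.20 to 0.59 and 0.34 to 0.94 and joined them with a pseudocount of 0.1 FPKM, which made 4 of the 9. At a 2-fold threshold with a pseudocount of 1 FPKM 0 of the 9 genes were higher, while SPARC was past 2-fold in both with a pseudocount of 0.1 FPKM, median scaling or no mitochondrial transcripts. With 1 siRNA library left out, 4 (without siRNA 1) or 5 (without siRNA 2) of the 9 were higher and 1 or 0 lower. The mean ratio then lay between -0.37 and 0.46 for TGFB1, -0.20 and 0.98 for TGFB2, -0.68 and 0.74 for TGFBR1, -0.044 and 0.18 for TGFBR2, and -0.36 and 0.34 for SMAD3, so the sign of these 5 depends on the siRNA.

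Over all genes 444 were higher in both, or 713 with a pseudocount of 0.1 FPKM, 252 with the highest transcript, 188 with the mean over transcripts, 102 at 2-fold, and 861 to 1834 with 1 siRNA library left out. The lower genes numbered 205, or 99 with the mean over transcripts, 39 at 2-fold, and 762 to 1410 with 1 left out. Of the pathway lists 17 genes were higher, or 10 with the highest transcript, 9 with the mean over transcripts and 26 to 35 with 1 left out, and 1 was lower, or 0 with the mean over transcripts and 6 to 8 with 1 left out. Robust limma called 3 genes of all, none of the 9, where limma called 0. The cause of these differences was not tested. Leaving out a siRNA library left limma no residual degrees of freedom, so it was not run there. No paired analysis was possible because there is only 1 control library and its label carries no replicate number. Depth limits TGFB2, SMAD7 and TGFBR1 most, at 112 to 678 read equivalents.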
